A study of Homo sapiens with 8 samples.

Results

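The MYC, MAX and MXD network is a family of transcription factors, and 10 of its genes were followed by name through the RNA-seq table of Jurkat cells: MYC, MAX, MXD1, MXI1, MXD3, MXD4, MNT, MGA, MLX and MLXIP. They are 10 of the 13453 genes of the table and all 10 were among the 11427 genes tested. Jurkat is an established human T-cell acute lymphoblastic leukemia (T-ALL) line. RNA was sequenced from 8 libraries, 2 for each of 4 kinds of Jurkat-derived cells: cells carrying a control shRNA (sh-Ctrl), cells carrying an shRNA against CBAP (sh-CBAP), CBAP-knockout cells made with CRISPR/Cas9 that expressed GFP (CBAP-KO), and knockout cells given CBAP fused to GFP (CBAP-reconstituted). The knockout is therefore shared by the CBAP-KO and CBAP-reconstituted cells, which form the CRISPR set, while the sh-Ctrl and sh-CBAP cells form the shRNA set. The 2 libraries of a condition carry different names in the labels, the series title speaks of clones, nothing else states that they were separate cultures, and p-values measure only the spread between these libraries.

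MYC drives transcription of growth genes as a heterodimer with MAX at E-boxes, short DNA motifs of the type CACGTG, and is a central oncoprotein of T-ALL, where NOTCH1 activates it. The MXD proteins (MXD1, MXI1, MXD3 and MXD4) and MNT also pair with MAX, bind the same motif and recruit SIN3 and histone deacetylases, so that they oppose MYC. MGA brings MAX into the repressive complex PRC1.6, and MLX pairs with MLXIP (MondoA), a sensor of glucose-derived metabolites.

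Values are FPKM, fragments scaled to gene length and to the number mapped, so they can be set side by side between genes, while the depth behind them is unknown. Changes are differences in log2(FPKM + 1) with their standard error (SE), and a gene was called when its limma p, adjusted by Benjamini-Hochberg across every gene tested, was under 0.05. The libraries summed to 362082 to 434742 FPKM, and 606 to 1256 genes per library were listed at 0, which can be a failed estimate. None of the network genes was listed at 0 in any library. CBAP is encoded by TMEM102, which was at 4.07 and 4.74 in sh-Ctrl and at 2.69 and 2.89 in sh-CBAP cells, but its FPKM was 0 throughout the CRISPR set, in CBAP-reconstituted and CBAP-KO cells alike, and it gave no check of which of these libraries expressed CBAP. The T cell genes CD3D (446 to 553 FPKM) and LCK (218 to 303) were high in every library, but others varied widely. CD5 ranged from 0.180 to 27.4, CD28 from 2.59 to 37.5 and CD2 from 10.3 to 83.7. BCL11B ran from 0, possibly a failed estimate, to 71.2. In the CRISPR set CD5, CD28 and CD2 were called higher in CBAP-KO cells, by 4.55, 3.32 and 2.80. Of 13 T cell markers, 12 had values. They summed to 1730 to 1797 in sh-Ctrl, 1779 to 1960 in sh-CBAP, 1629 to 1634 in CBAP-reconstituted and 2175 to 2651 in CBAP-KO cells. Of the 12, 7 were called higher and 0 lower in CBAP-KO than in CBAP-reconstituted cells. The shares of all tested genes were 23.9% higher and 25.9% lower. In the shRNA set 1 of the 12 was called higher (CD2, 0.95) and 2 lower (LCK, -0.43, and ZAP70, -0.39). There 3.62% of all tested genes were called higher and 8.7% lower. Of the markers of other lineages, only CD79A of the 5 B cell genes had values. It was at 12.97 to 22.5 in the shRNA set, 0.732 to 1.09 in CBAP-reconstituted and 9.60 to 9.91 in CBAP-KO cells. The 2 erythroid and 3 epithelial or stromal markers with values stayed at or under 4.25, and 0 of the 6 myeloid markers had values. The part of these differences in the results below was not tested, and in bulk RNA fewer cells of a type cannot be told apart from less RNA per cell.

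MYC was the most abundant network transcript and was lower in all 4 CBAP-deficient than in all 4 CBAP-expressing libraries. It was at 147.9 and 164.9 FPKM in sh-Ctrl, 125.3 and 137.5 in sh-CBAP, 157.3 and 156.5 in CBAP-reconstituted and 130.4 and 132.3 in CBAP-KO cells. The highest CBAP-deficient library thus lay under the lowest CBAP-expressing one. The mean was 16.0% lower in sh-CBAP than in sh-Ctrl cells and 16.3% lower in CBAP-KO than in CBAP-reconstituted cells. Over both sets MYC averaged 157 ± 6.97 (SD, n = 4) in CBAP-expressing and 131 ± 5.03 (SD, n = 4) in CBAP-deficient libraries, which gave a two-sided exact permutation p = 0.0286, the smallest that 4 against 4 libraries allow. The classes were separated without overlap at 14.9% of all tested genes.

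On the log2 scale MYC fell by 0.25 (SE 0.072) in the CRISPR set, with adjusted p = 0.030. In the shRNA set its difference was -0.25 (SE 0.072) and did not pass the test (adjusted p = 0.080). The difference between the 2 changes was 0.01 (SE 0.10), also not called. In the model that pooled all 4 CBAP-deficient against all 4 CBAP-expressing libraries MYC was not called (-0.25, SE 0.068, adjusted p = 0.114), while with the set as a covariate it was (adjusted p = 0.041). The call in the CRISPR set rested on scaling and on having all libraries of that set. After quantile normalization the change was -0.05 (adjusted p = 0.438), whereas scaling each library by its median ratio gave -0.25 (adjusted p = 0.013). Leaving out any 1 library of the CRISPR set ended the call, though the change stayed between -0.24 and -0.26. In the shRNA set MYC was called only without replicate 2 of sh-CBAP (adjusted p = 0.046).

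**Figure D1:**
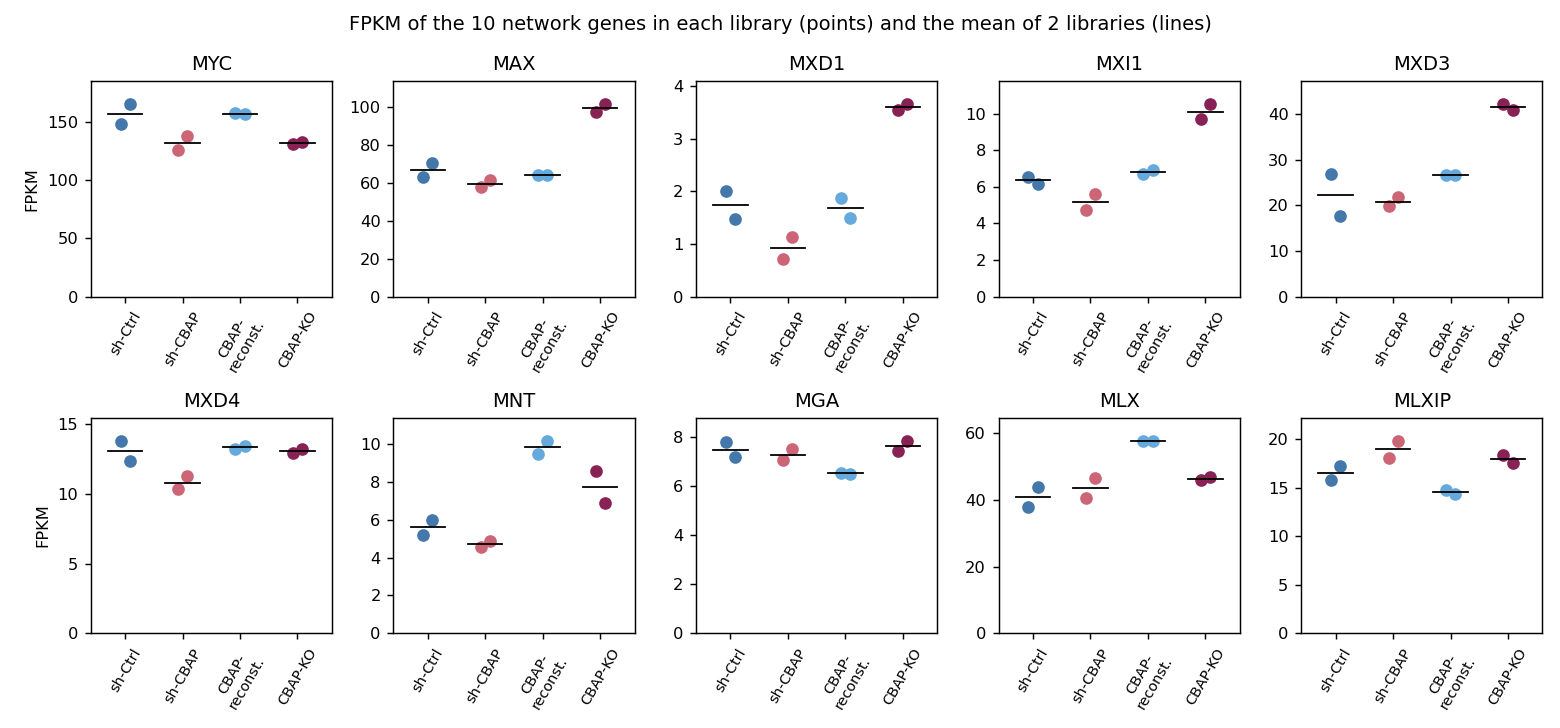
FPKM (vertical axes, from 0) of the 10 network genes in the 8 libraries, 2 points for each of the 4 kinds of cells, with a line at their mean. MYC was lower in both CBAP-deficient kinds of cells (125.3 to 137.5 against 147.9 to 164.9), whereas MAX, MXD1, MXI1 and MXD3 stood highest in the CBAP-KO libraries.

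MAX, a shared partner of MYC, MXD, MNT and MGA proteins, rose in the CRISPR set. It was at 64.2 and 64.4 FPKM in CBAP-reconstituted and at 97.3 and 101.6 in CBAP-KO cells, 1.55 times as high. The shRNA set had it at 63.1 and 70.3 in sh-Ctrl and at 57.8 and 61.4 in sh-CBAP cells. The CBAP-KO libraries thus stood above all 6 others, and the sh-CBAP libraries lowest. The change was 0.62 (SE 0.067, adjusted p = 0.0011) in the CRISPR set and -0.16 (SE 0.067, adjusted p = 0.185) in the shRNA set. The 2 changes differed by -0.78 (SE 0.095, adjusted p = 0.0033), and both the rise in the CRISPR set and this difference were called under all 15 alternatives run.

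Of the MXD genes, MXD1, MXI1 and MXD3 rose in the CRISPR set and MXD4 did not pass the test. MXD1 was the least abundant network transcript, at 1.88 and 1.5003 FPKM in CBAP-reconstituted and 3.54 and 3.66 in CBAP-KO cells, against 2.004 and 1.47 in sh-Ctrl and 0.706 and 1.13 in sh-CBAP cells. Its mean was 2.13 times as high in CBAP-KO as in CBAP-reconstituted cells but 0.527 times as high in sh-CBAP as in sh-Ctrl cells, and the libraries of each pair did not overlap. On the log2(FPKM + 1) scale, which understates changes of genes this low, it rose by 0.78 (SE 0.16, adjusted p = 0.0096) in the CRISPR set. Its difference in the shRNA set was -0.52 (SE 0.16, adjusted p = 0.089). The 2 changes differed by -1.29 (SE 0.22, adjusted p = 0.0091), which was called under all 15 alternatives. The rise in the CRISPR set lost the call without replicate 2 of CBAP-reconstituted cells (adjusted p = 0.063).

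MXI1, also known as MXD2, was at 6.69 and 6.90 FPKM in CBAP-reconstituted and 9.68 and 10.5 in CBAP-KO cells. The sh-Ctrl values were 6.54 and 6.16 and the sh-CBAP values 4.72 and 5.59. It followed the order of MXD1, with CBAP-KO libraries highest and sh-CBAP libraries lowest. It rose by 0.51 (SE 0.091, adjusted p = 0.0063) in the CRISPR set, and its difference in the shRNA set was -0.26 (SE 0.091, adjusted p = 0.125). These changes differed by -0.77 (SE 0.13, adjusted p = 0.0085). Both calls held under all 15 alternatives.

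MXD3, the most abundant MXD transcript, is known for its expression in proliferating cells. It was at 26.6 and 26.7 FPKM in CBAP-reconstituted and 42.2 and 40.9 in CBAP-KO cells, but at 26.9 and 17.6 in sh-Ctrl cells, whose spread covered the sh-CBAP values of 19.9 and 21.8. It rose by 0.62 (SE 0.18, adjusted p = 0.034) in the CRISPR set. That call was lost when any 1 library of this set was left out. The difference in the shRNA set was -0.06 (SE 0.18, adjusted p = 0.859), and the difference of the changes, -0.68 (SE 0.26), was not called (adjusted p = 0.092). MXD4 was at 13.8 and 12.3 in sh-Ctrl, 10.3 and 11.3 in sh-CBAP, 13.2 and 13.4 in CBAP-reconstituted and 12.9 and 13.2 in CBAP-KO cells. The sh-CBAP libraries were lowest, yet the difference of -0.25 (SE 0.075) in the shRNA set did not pass the test (adjusted p = 0.087), nor did that of -0.03 in the CRISPR set (adjusted p = 0.791).

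MNT, the widely expressed MAX partner that represses MYC targets, differed more between the sets than within them. It was at 5.18 and 6.01 FPKM in sh-Ctrl and 4.58 and 4.89 in sh-CBAP cells, against 9.48 and 10.2 in CBAP-reconstituted and 8.59 and 6.90 in CBAP-KO cells. CBAP-deficient libraries were the lower ones in each set, but neither change was called (-0.20, SE 0.12, adjusted p = 0.319 in the shRNA set and -0.32, SE 0.12, adjusted p = 0.073 in the CRISPR set). After quantile normalization the CRISPR set value became -0.42 and was called (adjusted p = 0.032). MGA ranged from 6.48 to 7.84 over all libraries. Its difference was -0.03 (SE 0.070, adjusted p = 0.793) in the shRNA set and 0.20 (SE 0.070, adjusted p = 0.060) in the CRISPR set.

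In the MondoA arm, MLX and MLXIP moved in opposite directions in the CRISPR set. MLX was at 57.7 in both CBAP-reconstituted libraries and at 46.0 and 46.8 in CBAP-KO cells. Its values of 38.0 and 43.96 in sh-Ctrl and 40.5 and 46.6 in sh-CBAP cells overlapped. It fell by 0.31 (SE 0.094, adjusted p = 0.039) in the CRISPR set, a call lost after quantile normalization (-0.14, adjusted p = 0.127) and without any 1 library of that set. The difference in the shRNA set was 0.09 (SE 0.094, adjusted p = 0.587). MLXIP was at 15.8 and 17.2 in sh-Ctrl, 18.1 and 19.8 in sh-CBAP, 14.7 and 14.3 in CBAP-reconstituted and 18.4 and 17.5 in CBAP-KO cells.

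On the deposited FPKM, all 4 CBAP-deficient libraries lay above all 4 CBAP-expressing ones for MLXIP. Of all tested genes 14.9% were separated in either direction. Median-of-ratios scaling divides the libraries by 0.960 and 0.964 in sh-Ctrl and by 1.08 and 1.07 in CBAP-KO cells. The MLXIP values of these cells then overlap, so the separation rests on the scaling. The means and permutation p that follow are those of the deposited FPKM. The CBAP-deficient and CBAP-expressing means of MLXIP were 18.4 ± 0.980 and 15.5 ± 1.27 (SD, n = 4 each, two-sided exact permutation p = 0.0286). MLXIP rose by 0.29 (SE 0.072, adjusted p = 0.021) in the CRISPR set, where any 1 library left out ended the call. The difference of 0.19 (SE 0.072) in the shRNA set was not called (adjusted p = 0.150), but was after quantile normalization (0.24, adjusted p = 0.046) and median-of-ratios scaling (0.26, adjusted p = 0.038). In the pooled model it was not called (0.24, SE 0.088, adjusted p = 0.189).

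**Figure D2:**
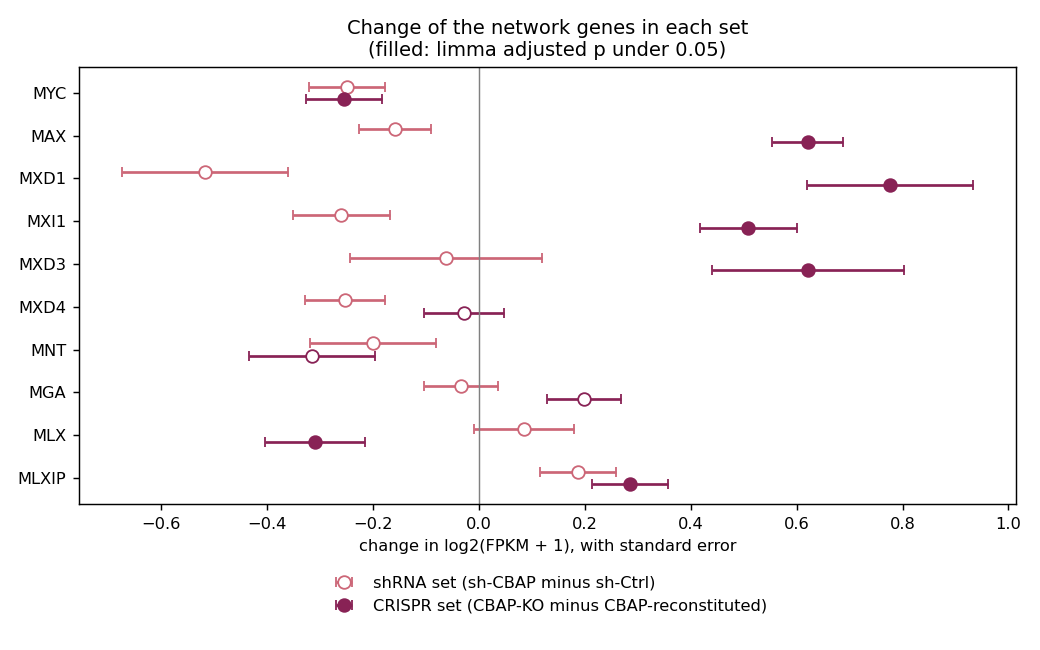
Change in log2(FPKM + 1) with its standard error (horizontal axis) for each network gene in the shRNA set and the CRISPR set, filled where limma gave an adjusted p under 0.05. MAX, MXI1 and MXD1 lie on opposite sides of 0 in the sets (0.62, 0.51 and 0.78 in the CRISPR set), while MYC lies at -0.25 in both.

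In the CRISPR set 7 of the 10 network genes were thus called, with MAX, MXI1, MXD1, MXD3 and MLXIP higher and MYC and MLX lower, where 49.9% of all tested genes were called. In the shRNA set limma called 0 of 10, against 12.3% of all tested genes, and 5 of the 10 had an unadjusted p under 0.05, as had 30.3% of all tested genes. The median change of the network genes was 0.24 in the CRISPR set and -0.18 in the shRNA set, where the medians of all tested genes were 0.00 and -0.06. The difference of the changes was called for 3 of 10 (MAX, MXI1 and MXD1) and for 33.8% of all tested genes. The pooled comparison called 0 of 10 network genes with limma and 0.621% of all tested genes. MYC and MLXIP had an unadjusted p under 0.05 there, as had 21% of all tested genes. On the deposited FPKM the classes did not overlap for 2 of 10 network genes and for 14.9% of all tested genes.

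The network was also set side by side across the sets, although TMEM102 differed there too (4.07 and 4.74 in sh-Ctrl against 0 in CBAP-reconstituted cells, 2.69 and 2.89 in sh-CBAP against 0 in CBAP-KO cells) and the set cannot be told apart from clone history, CBAP level or processing. The median of all tested genes was 0.17 higher in CBAP-reconstituted than in sh-Ctrl cells and 0.20 higher in CBAP-KO than in sh-CBAP cells, so each change is followed by its value relative to that median, while the adjusted p tests the change itself. Between the CBAP-expressing controls 2 of 10 were called, MNT (0.72, adjusted p = 0.0073, 0.55 above the median) and MLX (0.49, adjusted p = 0.012, 0.32 above it), both higher in CBAP-reconstituted cells, where 39.4% of all tested genes were called and 28.7% higher. Of all calls 72.9% were higher, 54.7% after quantile normalization and 48.0% after median-of-ratios scaling. After either other scaling 5 of 10 were called between these controls, with MAX, MGA and MLXIP lower in CBAP-reconstituted cells. Quantile normalization called 3628 of the 11427 tested genes there and median-of-ratios scaling 3600. Between the CBAP-deficient cells 6 of 10 were called higher in CBAP-KO cells, where 52.8% of all tested genes were called and 37.9% called higher. Of all calls 71.9% were higher, 53.4% after quantile normalization and 47.5% after median-of-ratios scaling. The changes were 1.27 for MXD1 (adjusted p = 0.0018), 0.96 for MXD3 (adjusted p = 0.0074), 0.85 for MXI1 (adjusted p = 0.0011), 0.73 for MAX (adjusted p = 0.00068) and 0.60 for MNT (adjusted p = 0.0087). Relative to the median they were 1.07, 0.76, 0.65, 0.53 and 0.40. MXD4 (0.25, adjusted p = 0.034) was 0.05 above the median and lost its call under both other scalings, and MNT lost its call after quantile normalization (adjusted p = 0.056). MLXIP, at -0.27 relative to the median and not called, was called lower in CBAP-KO cells under both other scalings. The MYC values relative to the median were -0.16 and -0.20 in the 2 comparisons and neither was called, although median-of-ratios scaling called MYC lower in CBAP-KO than in sh-CBAP cells (-0.23, adjusted p = 0.020).

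The balance of the transcripts is described by ratios of FPKM, which are per length. The ratio of MYC to MAX was 2.34 and 2.35 in sh-Ctrl, 2.17 and 2.24 in sh-CBAP and 2.45 and 2.43 in CBAP-reconstituted cells, but 1.34 and 1.30 in CBAP-KO cells. The summed level of MXD1, MXI1, MXD3, MXD4 and MNT was 54.4 and 43.6 in sh-Ctrl, 40.2 and 44.7 in sh-CBAP, 57.9 and 58.7 in CBAP-reconstituted and 76.9 and 75.2 in CBAP-KO cells, and MXD3 made up 40.4% to 54.9% of it. MYC per unit of this sum was 2.72 and 3.78 in sh-Ctrl, 3.12 and 3.08 in sh-CBAP, 2.72 and 2.67 in CBAP-reconstituted and 1.70 and 1.76 in CBAP-KO cells. Both ratios were therefore lowest in the CBAP-KO libraries, and for MYC to the summed antagonists the sh-CBAP values lay within the spread of sh-Ctrl. Over the 8 libraries, as a description only, MXI1 varied with MXD1 (Pearson r = 0.98), MAX (0.94) and MXD3 (0.92), whereas r was -0.31 between MYC and MAX. These values are not independent of the sets, since the 2 CBAP-KO libraries stood apart for each of these genes but MYC.

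**Figure D3:**
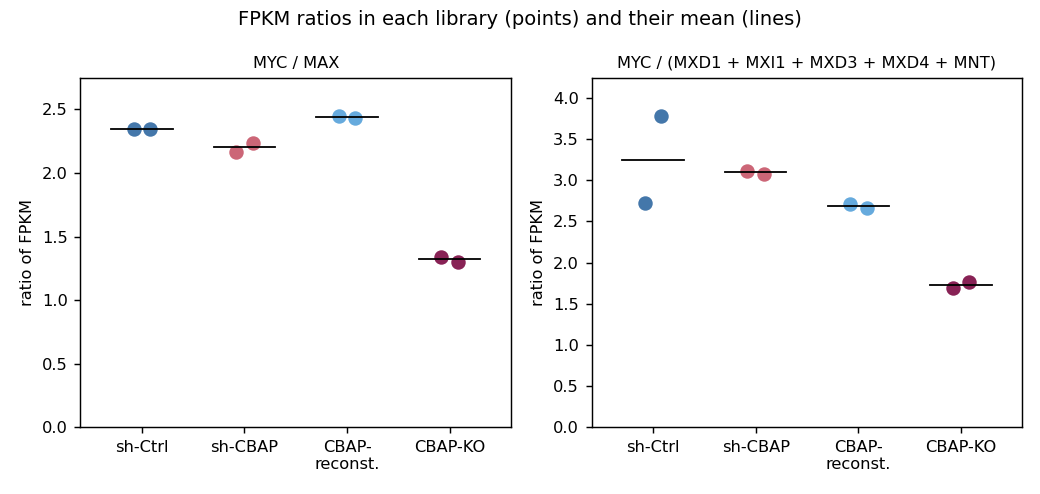
Ratio of FPKM (vertical axes, from 0) of MYC to MAX, left, and of MYC to the sum of MXD1, MXI1, MXD3, MXD4 and MNT, right, with 2 points per kind of cells and a line at their mean. The CBAP-KO libraries were lowest in both, at 1.34 and 1.30 and at 1.70 and 1.76.

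Promoter sequence is shown because the network's own factors bind CACGTG. RefSeq windows of 250 bases before each annotated start (table of GRCh38.p14, placed in GRCh37 by exact match) were matched for 9 of the 10 network genes. The palindrome CACGTG, which reads the same on both strands, was found in the windows of MNT, MXD4 and MLX, and not in those of MAX, MGA, MXI1, MXD1, MXD3 and MLXIP. Of all genes with a window 7.73% had it (2110 of 27305), and 11.9% of tested genes (960 of 8093). The stretches around it, with CACGTG in capitals, are at chr17:2304482-2304604 on the minus strand (MNT), chr4:2264009-2264086 on the minus strand (MXD4) and chr17:40719008-40719117 on the plus strand (MLX), where the last 28 bases lie in the first exon of MLX. The window of MXD3 is chr5:176739754-176740003 on the minus strand, and capitals mark its single match to GGGCGG, the GC box of SP factors, sought on both strands and found at 76.4% of tested genes. A match or its lack is a property of these letters and not a measured site.
MNT: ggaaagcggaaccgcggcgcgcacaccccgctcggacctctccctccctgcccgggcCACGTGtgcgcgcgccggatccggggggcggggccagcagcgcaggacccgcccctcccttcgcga
MXD4: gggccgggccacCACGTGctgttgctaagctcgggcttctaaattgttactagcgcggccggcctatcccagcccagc
MLX: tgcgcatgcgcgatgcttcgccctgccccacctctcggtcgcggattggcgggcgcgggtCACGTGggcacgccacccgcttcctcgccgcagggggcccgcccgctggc
MXD3: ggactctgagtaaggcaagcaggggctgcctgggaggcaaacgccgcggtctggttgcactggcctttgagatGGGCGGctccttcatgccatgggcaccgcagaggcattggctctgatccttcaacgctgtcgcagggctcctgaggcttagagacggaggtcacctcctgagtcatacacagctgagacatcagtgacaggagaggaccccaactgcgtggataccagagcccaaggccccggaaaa

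The genes tested as direct targets of MondoA and MLX were TXNIP and ARRDC4, arrestin-domain genes that restrain glucose uptake, and both rose in the CRISPR set. TXNIP was at 22.3 and 19.4 FPKM in sh-Ctrl, 31.2 and 25.7 in sh-CBAP, 27.5 and 28.4 in CBAP-reconstituted and 54.3 and 56.7 in CBAP-KO cells. Its CBAP-deficient libraries were the higher ones in each set. It rose by 0.97 (SE 0.11, adjusted p = 0.0013) in the CRISPR set under all 15 alternatives, and the difference of 0.43 (SE 0.11) in the shRNA set was not called (adjusted p = 0.060). ARRDC4 was at 2.10 and 2.27 in CBAP-reconstituted and 5.47 and 5.69 in CBAP-KO cells, a rise of 1.05 (SE 0.19, adjusted p = 0.0062), while sh-Ctrl (3.69 and 3.26) lay within the spread of sh-CBAP (2.55 and 4.26). The carbohydrate response element that MondoA and MLX recognise is a pair of E-box-like motifs 5 bases apart. The letters CACGNG, 5 further bases and CACGNG, sought on both strands, were in the windows of 16 of 27305 genes (0.059%), TXNIP among them. The window of ARRDC4 has a CACGTG starting 210 bases before its start. The pair of TXNIP is shown in capitals at chr1:145438342-145438478 on the plus strand, starting 88 bases before the annotated start.
TXNIP: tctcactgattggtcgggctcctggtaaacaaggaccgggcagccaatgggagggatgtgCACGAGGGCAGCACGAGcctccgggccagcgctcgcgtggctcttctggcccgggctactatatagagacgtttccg

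Of the wider MYC family, MYCN and MYCL (named MYCL1 in the table) were tested and both rose in the CRISPR set. MYCN was at 5.53 and 5.34 FPKM in CBAP-reconstituted and 14.9 and 13.9 in CBAP-KO cells (1.26, SE 0.29, adjusted p = 0.014). It was at 4.27 and 5.16 in sh-Ctrl and 11.1 and 5.43 in sh-CBAP cells, so replicate 1 of sh-CBAP stood apart and no call was made (adjusted p = 0.206). MYCL1 rose from 3.36 and 3.14 to 4.64 and 4.34 (0.37, SE 0.099, adjusted p = 0.025). The calls held under 11 (MYCN) and 10 (MYCL1) of the 15 alternatives. Both stayed far under MYC in every library.

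Genes that MYC is known to induce were next counted, as lists chosen for their link to the network. Of 35 nucleolar and ribosome-biogenesis genes, 24 fell and 0 rose in the CRISPR set, where 25.9% of all tested genes were called lower and 23.9% higher. They summed to 2536 to 2872 FPKM in sh-Ctrl, 2299 to 2711 in sh-CBAP, 3436 to 3519 in CBAP-reconstituted and 2345 to 2359 in CBAP-KO cells. The CBAP-reconstituted libraries thus stood highest, and the CBAP-KO libraries lay within the range of sh-CBAP. NOLC1 and NOP2 were listed at 0 in some shRNA set libraries, which lowers those sums. Their median change was -0.56 and stayed at -0.45 after quantile normalization and -0.56 after median-of-ratios scaling. In the shRNA set 1 rose and 0 fell, against 3.62% higher and 8.7% lower of all tested genes (29.4% of the calls were higher, and 50.4% after quantile normalization). The list median there was -0.04, and 0.01 after quantile normalization. The change differed between the sets at 14 of the 35, all 14 with the higher value in the shRNA set, where 15.5% of all tested genes differed in this direction and 18.3% in the other. BOP1, a factor of large ribosomal subunit processing, fell from 77.5 and 87.3 FPKM to 3.52 and 3.59 in CBAP-KO cells (-4.19, SE 0.25, adjusted p = 0.00015). NOP16, another nucleolar factor, fell from 68.1 and 71.0 to 31.7 and 32.0 (-1.10, SE 0.091, adjusted p = 0.00043). Neither passed the test in the shRNA set (BOP1 -0.07, adjusted p = 0.894, NOP16 -0.09, adjusted p = 0.565). There NOP16 was at 43.9 and 52.9 in sh-Ctrl and 44.5 and 46.1 in sh-CBAP cells. Between the controls NOP16 was 0.52 higher in CBAP-reconstituted cells (limma adjusted p = 0.0084), while BOP1 was not called (0.24, limma adjusted p = 0.473).

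Of 26 tested growth and metabolism genes that MYC induces, 9 fell and 0 rose in the CRISPR set. Of all tested genes 25.9% were called lower there and 23.9% higher. The list median was -0.20 and became -0.04, with 6 higher and 7 lower, after quantile normalization. In the shRNA set 5 fell and 2 rose, against 8.7% lower and 3.62% higher of all tested genes. The list median there was -0.07 and became 0.00 after median-of-ratios scaling. Of the 26 genes, 3 fell in both sets, as did 4.03% of all tested genes. CDK4, the G1 cyclin-dependent kinase, fell from 102 and 118 to 86.0 and 84.1 in the shRNA set (-0.37, SE 0.079, adjusted p = 0.040) and from 129 and 132 to 64.3 and 60.3 in the CRISPR set (-1.06, SE 0.079, adjusted p = 0.00031). The glycolytic enzyme ENO1 fell by 0.40 (SE 0.046, adjusted p = 0.0095) and by 1.02 (SE 0.046, adjusted p = 5.91e-05). UNG, the uracil DNA glycosylase, fell by 0.32 (SE 0.054, adjusted p = 0.023) and by 0.24 (SE 0.054, adjusted p = 0.013). Of the 15 alternatives, 5 kept the shRNA set call of CDK4, 13 that of ENO1 and 9 that of UNG.

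Of 10 tested genes that MYC represses, 4 rose and 1 fell in the CRISPR set (median 0.50, and 0.37 after quantile normalization), against 23.9% called higher and 25.9% called lower of all tested genes. The shRNA set had 0 calls by limma, where 12.3% of all tested genes were called, 2 after quantile normalization and 1 after median-of-ratios scaling. There 3 genes had an unadjusted p under 0.05, as had 30.3% of all tested genes (list median -0.09). CDKN1A, the cell cycle inhibitor p21, was at 0.996 and 0.954 FPKM in CBAP-reconstituted and 7.14 and 7.24 in CBAP-KO cells (2.05, SE 0.23, adjusted p = 0.0011). The gene was at 1.68 and 0.706 in sh-Ctrl and 0.630 and 1.03 in sh-CBAP cells, which did not pass the test (adjusted p = 0.532). CDKN2C, the inhibitor p18, rose from 57.3 and 56.1 to 81.3 and 85.8 in the CRISPR set (0.55, SE 0.075, adjusted p = 0.0023).

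**Figure D4:**
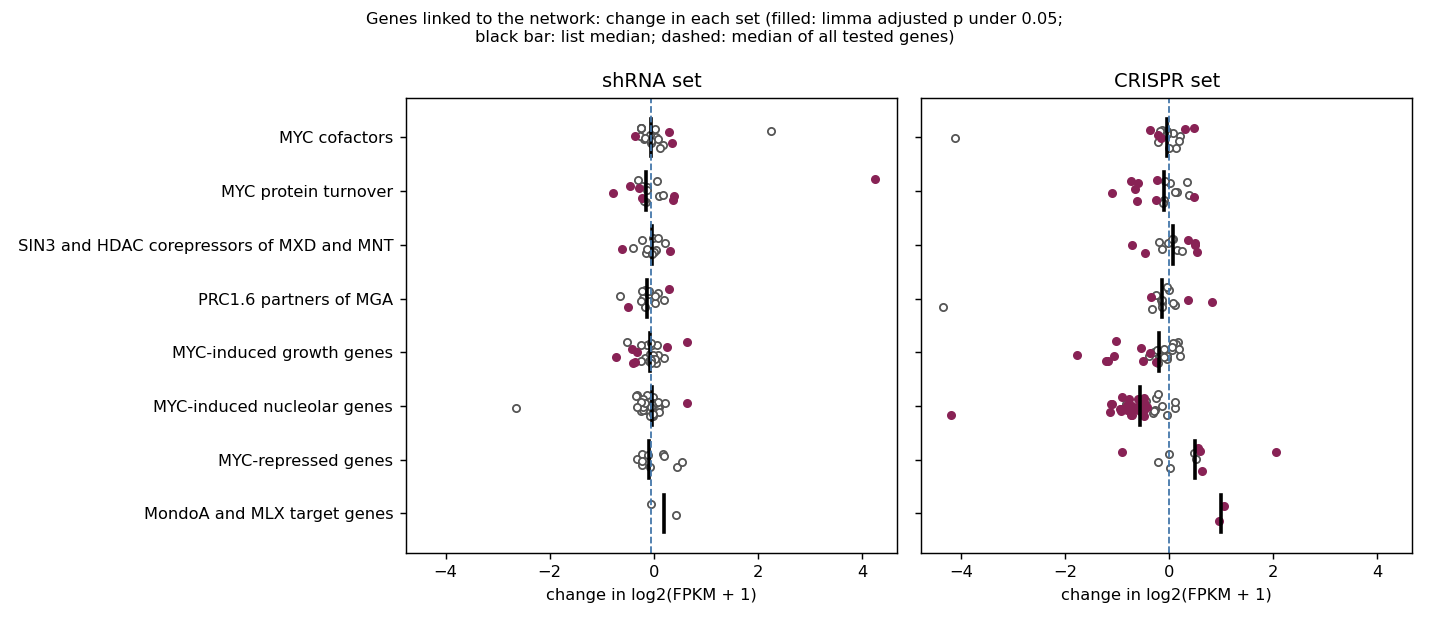
Change in log2(FPKM + 1) (horizontal axes) of each tested gene of 8 lists linked to the network in the shRNA set, left, and the CRISPR set, right, filled where limma gave an adjusted p under 0.05, with a black bar at the list median and a dashed line at the median of all tested genes. The nucleolar genes lie at a median of -0.56 in the CRISPR set and -0.04 in the shRNA set, and the far points include genes listed at 0 in some libraries.

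Partners of the network were mixed. The shares of all tested genes to read their counts against are 3.62% higher and 8.7% lower in the shRNA set, 23.9% higher and 25.9% lower in the CRISPR set, and 1.72% higher and 4.03% lower in both. Of 18 MYC cofactors, 2 rose and 1 fell in the shRNA set, 2 rose and 3 fell in the CRISPR set, and none was called in 1 direction in both. RUVBL1, an ATPase of chromatin-remodelling complexes, fell in the CRISPR set (-0.36, SE 0.066, adjusted p = 0.0070). Its difference in the shRNA set was -0.26 (SE 0.066) and was not called (limma adjusted p = 0.062). The difference of its changes, 0.10, was not called either (limma adjusted p = 0.430). The MYC-binding cofactor HCFC1 rose in the shRNA set from 41.2 and 44.1 to 52.3 and 52.2 (0.29, SE 0.052, adjusted p = 0.026) and fell in the CRISPR set from 50.8 and 49.2 to 45.1 and 44.1 (-0.16, SE 0.052, adjusted p = 0.047). These calls of HCFC1 held under 9 and 6 of the 15 alternatives.

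Of 16 genes of MYC protein turnover, 3 rose and 4 fell in the shRNA set and 1 rose and 7 fell in the CRISPR set, and the 4 that fell in the shRNA set fell in both. Another, GSK3B, a kinase that marks MYC for degradation and named after its values were seen, rose in both (0.39, SE 0.062, adjusted p = 0.020 and 0.48, SE 0.062, adjusted p = 0.0020). Among the 4 that fell were STUB1 (ubiquitin ligase CHIP) and SKP2 and FBXL14 (F-box proteins of ubiquitin ligases). SKP2 fell by 0.45 (SE 0.079, adjusted p = 0.024) in the shRNA set and by 0.65 (SE 0.079, adjusted p = 0.0016) in the CRISPR set. STUB1 fell by 0.22 (SE 0.051, adjusted p = 0.045) and 1.11 (SE 0.051, adjusted p = 5.97e-05), and FBXL14 by 0.79 (SE 0.074, adjusted p = 0.0054) and 0.26 (SE 0.074, adjusted p = 0.033). The shRNA set calls held under 15 of the 15 alternatives for FBXL14, 10 for SKP2 and 4 for STUB1. FBXL14 averaged 22.8 FPKM in sh-Ctrl, 12.7 in sh-CBAP, 12.8 in CBAP-reconstituted and 10.5 in CBAP-KO cells, so sh-Ctrl stood apart. STUB1 averaged 45.8, 39.05, 77.1 and 35.3 in that order, highest in CBAP-reconstituted cells. In CBAP-reconstituted against sh-Ctrl cells the change was -0.79 for FBXL14 (limma adjusted p = 0.0012) and 0.74 for STUB1 (limma adjusted p = 0.00036). It was 0.25 for SKP2 and not called (limma adjusted p = 0.051). Among the 3 called higher in the shRNA set was the ubiquitin ligase HUWE1, named after its values were seen, which was listed at 0 in both sh-Ctrl libraries and at 13.9 to 21.5 in the other 6. It belongs to the 7 genes of these lists listed at 0 in some library.

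Of 13 SIN3 and histone deacetylase corepressor genes, 1 rose and 1 fell in the shRNA set, and 4 rose and 2 fell in the CRISPR set. ARID4B, a subunit of the SIN3 complex, rose in both, by 0.31 (SE 0.073, adjusted p = 0.049) and 0.54 (SE 0.073, adjusted p = 0.0023), and the former call held under 6 of the 15 alternatives. Of 14 PRC1.6 partners of MGA, 1 rose and 1 fell in the shRNA set and 2 rose and 1 fell in the CRISPR set. TFDP1, the dimer partner of E2F factors, fell in both, by 0.49 (SE 0.084, adjusted p = 0.023) and 0.35 (SE 0.084, adjusted p = 0.017). Of the germ cell genes that PRC1.6 silences, 2 were tested. SMC1B, the meiotic cohesin subunit, fell in the shRNA set from 3.91 and 2.96 to 0.730 and 1.15 (-1.19, SE 0.17, adjusted p = 0.015), and TDRKH was called in neither set.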

How the data were processed

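RNA-seq of 8 Jurkat libraries was analysed from the table the authors deposited. Per the labels and the submitters' processing notes, reads were handled with CASAVA 1.8, aligned with TopHat and Bowtie to hg19, and FPKM, fragments per kilobase of gene model and scaled to the fragments mapped, were estimated with Cufflinks and Cuffdiff. Library scaling, the annotation, and whether both sets were processed together are not given in the sources used here.

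Deposited values were taken to log2(FPKM + 1), and the 11427 genes whose FPKM averaged 1 or more over the libraries were tested. Limma 3.58.1 (R 4.3.3, empirical Bayes with trend, tested on simulated data) fitted a mean per condition, or the 4 CBAP-deficient against the 4 CBAP-expressing libraries, at a Benjamini-Hochberg adjusted p of 0.05 over every gene tested. No counts exist in the table, so precision rests on 2 libraries per condition. Network genes and lists were chosen with earlier results of these data known. Besides the network genes, the text names from each list up to 4 genes called in both sets in 1 direction with the largest summed change, otherwise up to 2 with the smallest adjusted p, the MondoA targets, TMEM102, and the 5 genes most and 3 least correlated with MYC. Alternatives were a pseudocount of 0.1, no filter on low values, no trend, genes with a listed 0 left out, quantile normalization, a replicate block, the set as covariate and each library left out. Leaving out a library outside a comparison keeps the change as it is, and only the p-value can move. Median-of-ratios scaling was added after seeing the data. Promoter windows were RefSeq's. That of MYC was not used here, and a further gene named by the rule is not reported here.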

Additional observations from a re-analysis of the deposited data

Results flagged for a closer look

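The network genes whose change differed between the sets by limma's test of the difference (shRNA set minus CRISPR set, log2 scale) were MAX (-0.78), MXI1 (-0.77) and MXD1 (-1.29). Among the other named genes the difference was BOP1 4.13, NOP16 1.02, STUB1 0.88, CDK4 0.69, ENO1 0.63 and HCFC1 0.45, all positive. It was CDKN1A -2.29, SMC1B -1.20, ARRDC4 -1.10, CDKN2C -0.63, TXNIP -0.54 and FBXL14 -0.53, all negative.

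A library stood far from the other 3 of its class for 2 network genes, by Dixon's gap relative to the range. MXD3 in replicate 2 of sh-Ctrl (17.6 FPKM) had a gap of 0.973 of the range of the CBAP-expressing libraries, and MLX in replicate 1 of sh-CBAP (40.5 FPKM) had one of 0.876 among the CBAP-deficient libraries. Of the 20 groups examined, chance alone would give about 1. The classes hold both sets, and no cause was tested.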

How the results depend on the processing

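With 2 libraries per condition and no counts, depth could not be weighed, and calls near the threshold moved with single libraries. The pseudocount changed no call or direction of a network gene. Of 480 refits of a network gene with 1 library left out, 422 kept direction and side of the threshold and 22 changed direction. Many of these refits left out a library outside the compared groups, where the change cannot move. MYC in the shRNA set, for example, stayed at -0.2493 without either CBAP-KO library. The number that kept direction is therefore partly fixed by design. The counts of alternatives given for single genes hold such refits too. Nothing in the labels ties same-numbered libraries of different conditions together. The correlation of same-numbered deviations was 0.146 between sh-Ctrl and sh-CBAP and 0.024 between CBAP-reconstituted and CBAP-KO. With 2 libraries per condition these values cannot show whether same-numbered libraries were handled together. The fit with the replicate number as a block gave 0, 7 and 3 calls in the shRNA set, the CRISPR set and their difference, 0 in the pooled comparison, 2 between the controls and 5 between the CBAP-deficient cells, where MXD4 was lost (adjusted p = 0.060 from limma).

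Counts that moved were, in the shRNA set, 1 (MLXIP) after quantile normalization or median-of-ratios scaling and 0 to 3 with a library left out (3 without replicate 2 of sh-CBAP: MXD1, MXI1 and MYC). In the CRISPR set, leaving out a library gave 2 to 8, with 3 and 2 without replicates 1 and 2 of CBAP-reconstituted and 4 and 3 without replicates 1 and 2 of CBAP-KO. The difference of the changes gave 3 to 5 (5 without replicate 2 of sh-Ctrl). The pooled comparison gave 1 (MYC) with the set as covariate. Among the 35 nucleolar genes, 22 rather than 14 differed between the sets under median-of-ratios scaling. Calls of this difference among all tested genes rose too, from 3861 to 4366, and those higher in the shRNA set from 1774 to 2311. Calls in the shRNA set rose from 1408 to 1675 after quantile normalization and to 1653 after median-of-ratios scaling. For the replicate block, the set as covariate and left-out libraries, the share of all tested genes is not given here. The CBAP-expressing controls gave 5 under either scaling and 0 to 3 with a library left out.

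Directions that turned after quantile normalization, all without a call except MGA between the CBAP-deficient cells (adjusted p = 0.048), were MGA in the shRNA set (0.0227), MYC in the difference (-0.12), MLX in the pooled comparison (0.0041), MYC (-0.15), MXD1 (0.0232) and MXD4 (-0.0933) between the controls, and MYC (-0.0269), MGA (-0.195) and MLX (-0.0134) between the CBAP-deficient cells. With median-of-ratios scaling they were MGA (0.0299) and MXD3 (0.0063) in the shRNA set, MYC (-0.16), MXI1 (-0.0566) and MXD4 (-0.12) between the controls, and MYC (-0.23, adjusted p = 0.020 from limma), MGA (-0.15) and MLX (-0.14) between the CBAP-deficient cells. With a library left out, values that crossed 0 ran from -0.0857 to 0.0193 for MGA, -0.352 to 0.228 for MXD3 and -0.0167 to 0.188 for MLX in the shRNA set. They ran from -0.0731 to 0.0832 for MYC and -0.0237 to 0.256 for MNT in the difference, and from -0.0355 to 0.301 for MXI1 and -0.0886 to 0.394 for MXD1 in the pooled comparison. Between the controls they ran from -0.0717 to 0.0846 for MYC, -0.127 to 0.0267 for MAX, -0.163 to 0.118 for MXD1, -0.0112 to 0.569 for MXD3 and -0.0465 to 0.105 for MXD4. Between the CBAP-deficient cells they ran from -0.0649 to 0.0677 for MYC and -0.0078 to 0.193 for MLX. The causes were not tested.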

Other observations

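The genes whose level followed MYC most closely over the 8 libraries, on log2(FPKM + 1) and as a description, were TIMM8A (Pearson r = 0.992), a mitochondrial import chaperone, PDCD11 (0.980), a ribosome-processing factor, UFSP1 (0.974), LCP1 (0.965), a leukocyte actin-bundling protein, and PINX1 (0.963), a nucleolar telomerase inhibitor. TIMM8A averaged 9.05 FPKM in sh-Ctrl, 6.64 in sh-CBAP, 9.29 in CBAP-reconstituted and 6.64 in CBAP-KO cells. PDCD11 averaged 14.3, 11.7, 14.8 and 11.3 in the same order. The lowest values of r were those of CMTM8 (-0.950), CELF5 (-0.948) and MED13L (-0.935), the last a subunit of the Mediator kinase module, which averaged 12.004, 16.7, 11.6 and 18.7 FPKM in that order. These genes were selected for their r among all tested genes over the same libraries.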
